A study of Mus musculus with 17 samples.

Results

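AMPA receptors are the channels that carry most fast excitatory transmission in the brain, and 10 genes of this system were followed here in the mouse anterior thalamic nuclei and the tissue around them. They were chosen by gene symbol. They are the 4 genes for the pore-forming subunits (Gria1, Gria2, Gria3 and Gria4), 4 genes for transmembrane AMPA receptor regulatory proteins (Cacng2, Cacng3, Cacng4 and Cacng8) and 2 genes for cornichon proteins (Cnih2 and Cnih3). All 10 were found among the 52636 genes counted in single cells and among the 28692 genes counted in tissue sections. Their Ensembl identifiers are ENSMUSG00000020524 (Gria1), ENSMUSG00000033981 (Gria2), ENSMUSG00000001986 (Gria3), ENSMUSG00000025892 (Gria4), ENSMUSG00000019146 (Cacng2), ENSMUSG00000066189 (Cacng3), ENSMUSG00000020723 (Cacng4), ENSMUSG00000053395 (Cacng8), ENSMUSG00000024873 (Cnih2) and ENSMUSG00000026514 (Cnih3).

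Each receptor is a tetramer of subunits, and its mixture of subunits sets its conductance, kinetics and calcium permeability. GluA2, the product of Gria2, makes receptors nearly impermeable to calcium when its RNA has been edited. The regulatory proteins and cornichons are not part of the pore: they bind the subunits, help them reach the synapse and slow their closing. Neurons of the anterior thalamic nuclei are excitatory relay neurons of the limbic system that receive glutamatergic input from the mammillary bodies and the cortex.

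All samples came from WT mice, with the strain given as B6 for the dissociated cells and no age or sex in the labels. Cells of the nuclei had been picked by hand from dissociated slices, and 904 of 1216 wells with a cell were kept (103, 328 and 473 cells from animals 1, 2 and 3). The sections were 1 anterior section (section 5) and 2 posterior sections (sections 2 and 6) on Visium arrays, whose 7827 spots each collect RNA from a small patch of tissue with several cells. Nothing in the labels says which brain a section came from, so p-values between spot groups measure the spread between these sections.

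Cells carried a median of 49798 counts in animal 1, 8845 in animal 2 and 50474 in animal 3, so values of animal 2 rest on the fewest counts. Spots carried medians of 8990.5, 5313 and 7210 counts in sections 2, 5 and 6. The 2393 spot barcodes found in more than 1 section are positions of the array, not shared cells. Levels are given in CPM, the counts of a gene per 1000000 counts of all genes in the same summed group, and fold changes on the log2 scale. Clusters and regions were made without the 10 genes and without 44 other genes of AMPA receptor biology, but from the same cells and spots, so the tests describe how the genes follow groups that other genes define. Cells formed 5 neuron clusters of 877 cells, and 27 cells with oligodendrocyte markers were set apart. The clusters are named by their leading genes as cluster 1 (Ccdc141 and Lipe, 297 cells), cluster 2 (Foxp1 and Tnnt1, 210 cells), cluster 3 (Calb2 and Necab1, 182 cells), cluster 4 (Car4 and Npsr1, 149 cells) and cluster 5 (C1ql2, 39 cells). The 8 markers of glutamatergic thalamic neurons summed to a mean of 2912 CPM in cluster 5 and to means of 3963 to 5314 CPM in the other 4, and none of the 8 was at 0 in any cluster. Clusters 1 and 4 are close to each other, with 7 of 11493 genes (0.0609%) passing between them. The other pairs of clusters 1 to 4 gave 0.661% (1 and 2), 1.88% (1 and 3), 3.47% (2 and 3), 4.25% (2 and 4) and 1.03% (3 and 4).

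The promoters of the cornichon pair are shown because Cnih3 and Cnih2 encode closely related proteins. Of the pair, only Cnih3 passed when each neuron cluster was set against the others. The sequences are the 250 bases before the gene start in RefSeq on GRCm38.p6, read 5′ to 3′ on the strand of the gene. Capitals mark a GC box (GGGCGG, or CCGCCC on the other strand) or an E-box (CACGTG, the same on both strands).
Cnih3, chr1:181352378-181352627, plus strand: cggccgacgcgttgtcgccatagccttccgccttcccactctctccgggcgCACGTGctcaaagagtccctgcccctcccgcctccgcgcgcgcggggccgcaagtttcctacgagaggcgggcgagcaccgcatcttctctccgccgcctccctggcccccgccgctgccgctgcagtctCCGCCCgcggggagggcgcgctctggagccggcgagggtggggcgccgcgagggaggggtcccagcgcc
Cnih2, chr19:5098522-5098771, minus strand: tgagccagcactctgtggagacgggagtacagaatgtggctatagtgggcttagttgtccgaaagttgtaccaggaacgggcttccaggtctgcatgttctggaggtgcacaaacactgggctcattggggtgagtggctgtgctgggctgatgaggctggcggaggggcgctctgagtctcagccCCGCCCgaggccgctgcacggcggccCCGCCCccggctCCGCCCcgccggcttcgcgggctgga
The Cnih3 window held 1 GC box and 1 E-box, with 76% G or C and 36 CpG pairs. The Cnih2 window held 3 GC boxes, with 65.6% G or C and 17 CpG pairs. Among 27025 promoter windows of the same length, 32.9% held a GC box, 6.05% an E-box, 13% TATAAA or TTTATA, and 1.62% TGACGTCA. RefSeq windows were found for 7 of the 10 genes, and those of Gria2, Gria4, Cacng2, Cacng3 and Cacng8 held none of the 4 motifs. A match is a description of the letters and not a binding site.

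The first question was how the genes differ between the neuron clusters. Cacng4 and Cnih3 differed most: both were close to absent in the C1ql2 cluster, and Cacng4 was highest in the Foxp1 and Tnnt1 cluster. Gria1 and Gria2 were also lowest in the C1ql2 cluster, while Gria3, Gria4, Cacng2, Cacng3 and Cnih2 passed the test in no cluster. Counts were summed by animal within each cluster, and each cluster was set against the mean of the other 4 with edgeR (quasi-likelihood, Benjamini-Hochberg adjustment over 11493 genes). A call is an adjusted p under 0.05. Of 45 tests (9 genes with enough counts in 5 clusters), 14 gave a call, against 4.87% of all genes in these comparisons. In cluster 5 all 4 of 9 calls were lower, where 12.1% of all genes changed (6.03% lower). In cluster 2 all 4 of 9 were higher, where 9.06% of all genes changed (4.92% higher). Clusters 1, 3 and 4 gave 2 calls of 9 each, all higher, against 0.931%, 1.8% and 0.479% of all genes (0.653%, 1.38% and 0.365% higher). The median log2 fold change of the 9 genes in cluster 5 was -0.90, and that of all genes tested was -0.18.

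**Figure D1:**
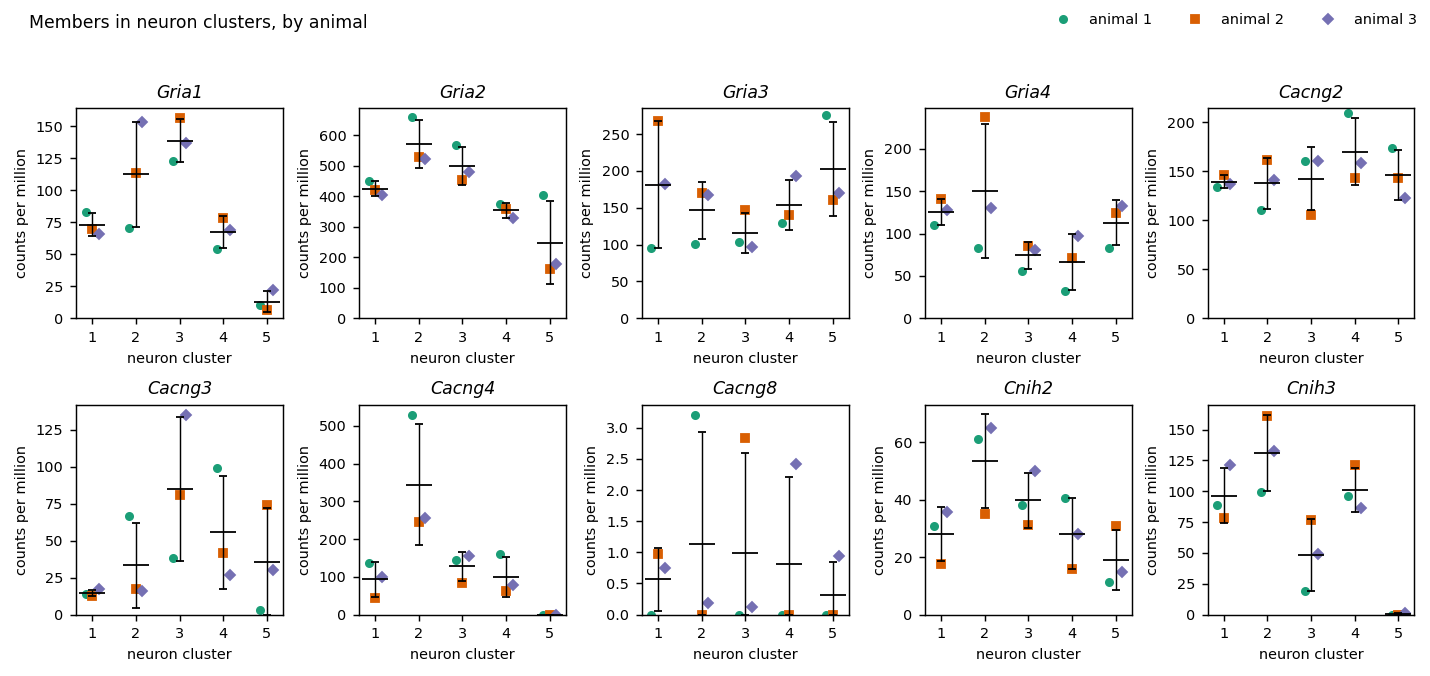
Levels in CPM of the 10 genes in neuron clusters 1 to 5, with 1 point per animal, a black line at the mean and bars of 1 SD over 3 animals (the lower bar stops at 0). Cacng4 is at 0 in all 3 animals in cluster 5 and between 246.3 and 529.5 CPM in cluster 2, and Cnih3 is at 1.56 CPM or less in cluster 5.

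Among the pore subunits, Gria1, which encodes GluA1, a subunit known for activity-dependent delivery to synapses, was at 9.95, 6.20 and 22.1 CPM in the 3 animals in cluster 5 (7, 1 and 71 counts). In clusters 1 to 4 it lay between 54.1 and 156 CPM, so no animal of cluster 5 reached the lowest value of another cluster. The log2 fold change in cluster 5 was -2.60 ± 0.41 (SE), with an adjusted p of 0.00031. It was lower in 12 of 12 plates with cells, and the call held without each animal in turn. Here and below, the plates share the 3 animals and are not further replicates. The plates also share the 39 cells of cluster 5, of which 2 of 6, 1 of 9 and 8 of 24 had a Gria1 count in animals 1, 2 and 3. Cluster 3 stood at the other end with 123, 156 and 137 CPM (log2 fold change 1.31 ± 0.29, adjusted p = 0.022), and cluster 2 had 70.6, 113 and 153 CPM (0.99 ± 0.30, adjusted p = 0.044). Both of these calls were lost when clusters 1 to 4 were compared without cluster 5 (adjusted p of 0.15 and 0.46), and each held in 1 of 3 fits that left out an animal. No pair among clusters 1 to 4 passed for Gria1.

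Gria2 was at 405, 161 and 176 CPM in cluster 5, where animal 1 stood apart from the other 2. Clusters 1 to 4 lay between 328 and 661 CPM, so that animal 1 overlapped them. The log2 fold change in cluster 5 was -0.90 ± 0.19 (adjusted p = 0.0043), lower in 12 of 12 plates. The call was lost without animal 2 (adjusted p = 0.14) and without animal 3 (0.16). Cluster 2 had the highest level at 661, 527 and 522 CPM (log2 fold change 0.68 ± 0.17, adjusted p = 0.016), a call that was lost without animal 2 (0.17) or animal 3 (0.21) and held in clusters 1 to 4 alone (0.49 ± 0.12, adjusted p = 0.0315). Cluster 4, with 376, 359 and 328 CPM, did not pass against cluster 5 (0.53 ± 0.23, adjusted p = 0.24), a pair in which 4.01% of all genes did.

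Gria3 and Gria4 encode the other two pore subunits. Gria3 was at 276, 161 and 170 CPM in cluster 5 and between 94.7 and 267 CPM in the other clusters. These ranges overlapped, and the log2 fold change of 0.58 ± 0.27 did not pass (adjusted p = 0.19). Gria4 was at 82.4, 124 and 132 CPM in cluster 5 and between 31.5 and 238 CPM elsewhere, again with overlap (0.25 ± 0.28, adjusted p = 0.60). Cluster means of Gria4 were ordered from 150.5 ± 79.0 CPM (SD, n = 3) in cluster 2 through 126 ± 15.4 in cluster 1, 113 ± 26.6 in cluster 5 and 74.1 ± 15.7 in cluster 3 to 66.4 ± 32.9 in cluster 4, and no pair among clusters 1 to 4 passed.

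The 4 subunits can also be read as shares of their summed counts, which serve to compare groups and not to rank subunits, since longer transcripts can give more counts. Over all neurons Gria2 made up 55.7 ± 7.37% of these counts (SD over 3 animals, 29270 counts). The share of Gria1 was 1.29%, 1.37% and 4.42% in cluster 5 and between 7.71% and 18.6% in clusters 1 to 4, without overlap. The share of Gria3 was 35.1 ± 0.98% in cluster 5 against means of 13.9 to 23.9% in the other clusters. So cluster 5 carried a larger part of its subunit counts as Gria3 while its Gria3 level itself did not pass the test. The shares were not tested.

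**Figure D2:**
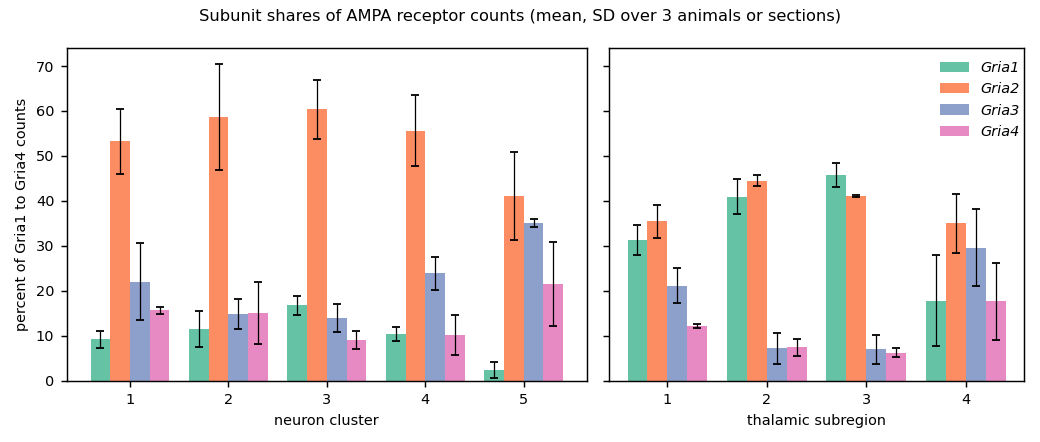
Percent of the summed counts of Gria1 to Gria4 taken by each subunit, in neuron clusters 1 to 5 (left) and thalamic spot subregions 1 to 4 (right); bars are means and lines 1 SD over 3 animals or 3 sections. Gria1 takes its smallest mean share in cluster 5 (2.36%) and in subregion 4 (17.8%).

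Among the regulatory proteins, Cacng4 gave no count in any of the 39 cells of cluster 5. The 39 cells held 4076010 counts, so a level of up to 0.736 CPM (3 counts over the group) is still allowed, and 0 of 39 cells allows a share of cells with a count of up to 7.69%. Pooled levels of clusters 4, 1, 3 and 2 were at least 113-fold, 141-fold, 201-fold and 413-fold higher than that limit. The adjusted p was 2.0e-07. Cluster 5 cells were the deepest (median 121250 counts against 19440 to 48397 in the other clusters). After thinning each cell to 5000 counts, 0% of cluster 5 cells and a mean of 24.8% to 56.8% of cells in the other clusters kept a Cacng4 count, and unthinned shares were 0% and 45.1% to 71.3%. Thinning left out 0, 61 and 2 shallower cells of the 3 animals.

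At the other end, Cacng4 was at 529.5, 246.3 and 255.8 CPM in cluster 2 (adjusted p = 1.1e-06). The fitted log2 fold change of 4.53 ± 0.30 includes the 0 counts of cluster 5 in its reference and depends on how the fit treats them, and it was 1.75 ± 0.21 among clusters 1 to 4 alone. Every animal of cluster 2 lay above the highest value of clusters 1, 3 and 4, which was 161 CPM. It passed against each of them (adjusted p of 0.0093, 0.018 and 0.0032) and was higher in 12 of 12 plates. Clusters 1, 3 and 4 had means of 93.9 ± 46.5, 128 ± 38.4 and 101 ± 52.7 CPM and no pair of these 3 passed. Their own calls as higher than the mean of the rest (adjusted p of 0.013, 0.00055 and 0.015) rest on the zero in cluster 5, because without cluster 5 the 3 fold changes were -0.82, -0.18 and -0.75 and none passed (adjusted p of 0.25, 0.75 and 0.15). Within plates, Cacng4 was higher than in the rest in 1 of 12, 6 of 12 and 2 of 11 plates in these 3 clusters. Clusters 1 to 4 alone gave 3 calls among 36 tests of the genes, against 2.49% of all genes: Cacng4 (adjusted p = 0.000375) and Gria2 higher in cluster 2, and Cnih3 lower in cluster 3.

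Cacng2, which encodes stargazin, was even across the neurons. Its values lay between 105 and 209 CPM over all clusters and animals, and the largest log2 fold change was 0.23 ± 0.22 in cluster 4 (adjusted p = 0.80). Cacng3 was at 38.0, 81.0 and 135 CPM in cluster 3, the highest mean, and at 12.6 to 17.0 CPM in cluster 1, the lowest. The 2 ranges did not overlap, but the spread between animals was wide and neither cluster 3 against the rest (1.48 ± 0.62, adjusted p = 0.36) nor cluster 1 against cluster 3 (-2.51 ± 0.86, adjusted p = 0.19) passed. Cluster 3 included 6 cells with GABA neuron markers, and these held 1.30% of its Cacng3 counts. Its 5 cells with the most held 31.0%, against 53.3%, 61.9%, 53.0% and 65.8% in clusters 1, 2, 4 and 5. Cacng8 gave 33 counts in all neurons together (0.871 CPM), too few to be tested. The 56 wells labelled ERCC gave 1 count of Gria1, 2 of Gria2 and 1 of Cacng2, and the 16 blank wells 1 count of Gria3, with none of Cacng4 or Cnih3 in either. The 56 wells labelled qRNA gave 2 counts of Cacng4, 1 of Cnih3 and 18 of Gria3 among 4367024 counts, and the 303 cell wells under the gene minimum gave 6 of Cacng4 and 11 of Cnih3 among 75643.

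Of the cornichon genes, Cnih3 passed as lower in cluster 5 and Cnih2 did not. Cnih3 was at 0, 0 and 1.56 CPM in cluster 5, where all 5 counts came from 1 cell of animal 3. The other clusters lay between 19.0 and 161 CPM, with no overlap. The log2 fold change was -6.17 ± 0.65 (adjusted p = 8.9e-06), and it passed without each animal. Cluster 2 had the highest mean, 131 ± 30.9 CPM (2.31 ± 0.34, adjusted p = 0.00037), followed by cluster 4 with 101 ± 17.9 and cluster 1 with 96.3 ± 22.5 CPM. Cluster 3 was lower at 19.0, 76.8 and 49.3 CPM, which missed the threshold against cluster 2 (adjusted p = 0.055) and passed in clusters 1 to 4 alone (-1.34 ± 0.33, adjusted p = 0.0395). The calls of Cnih3 in clusters 1, 2 and 4 were lost without cluster 5 (adjusted p of 0.92, 0.13 and 0.74).

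Cnih2 was at 11.4, 31.0 and 14.6 CPM in cluster 5 and between 16.0 and 65.0 CPM elsewhere. The groups overlapped and the fold change of -1.03 ± 0.55 (log2) did not pass (adjusted p = 0.25). Its highest mean was in cluster 2 at 53.6 ± 16.4 CPM, which did not pass either (1.03 ± 0.43, adjusted p = 0.16). Both cornichon genes thus had their lowest mean in cluster 5 and their highest in cluster 2. After thinning, a mean of 1.39% of cluster 5 cells kept a Cnih3 count and 13.4% kept a Cnih2 count, against 51.4% with a Cnih2 count before thinning.

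Markers of other cells were read beside these results. In cluster 5 the 7 astrocyte markers summed to 49.6 to 225 CPM, with Aqp4, Gfap, Slc1a3, Gja1 and Agt at 0, against 491 to 813 CPM over the animals of clusters 1 to 4. The 8 oligodendrocyte markers summed to 15.6 to 53.6 CPM in cluster 5 and to 2.59 to 299 CPM in the other 4. The 6 markers listed for hippocampal neurons, which include the leading gene C1ql2, summed to 1383 to 1607 CPM in cluster 5 and to 197 to 649 CPM elsewhere, with Neurod6 and Spink8 at 0 in cluster 5. The part of these differences in the results was not tested. Leaving out the 8, 6, 13, 7 and 2 cells of clusters 1 to 5 with at least 3 markers of another cell type gave 13 calls in place of 14.

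The sections were then read for a counterpart in tissue. Spots formed 12 regions. The markers of glutamatergic thalamic neurons summed to 2297 CPM in 1 of them and to 102 to 544 CPM in the others. That region, region 7 (650 spots, led by Shox2 and Tcf7l2), was chosen as thalamic because it scored highest for these same markers. It was divided again into subregion 1 (Cbln1, Nexn and Tnnt1, 325 spots), subregion 2 (Necab1 and Oxt, 170 spots), subregion 3 (Calb2 and Rab3b, 113 spots) and subregion 4 (C1ql2 and Slc17a7, 42 spots). C1ql2 itself stood at 467 ± 28.7 CPM in subregion 4 and at 6.92 to 14.2 CPM in the means of the other 3. In spots, fewer cells of a type and less RNA per cell cannot be told apart. Of 36 tests of the genes, 17 passed, against 8.89% of all genes in these comparisons.

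Subregion 4, the C1ql2 spots, was lower in 4 of 9 genes, where 13.6% of all genes changed (6.26% lower). Cacng4 was at 14.6, 23.0 and 23.2 CPM in sections 2, 5 and 6, from 2, 3 and 4 counts. The lowest value in another subregion was 28.4 CPM, in section 2 of subregion 2, and it rests on 2 counts in 7 spots. The exact 95% Poisson intervals of that value (3.44 to 103 CPM) and of the 14.6 CPM (1.77 to 52.9 CPM) overlap, so single sections do not resolve the difference, and the test over sections gave the call (log2 fold change -2.54 ± 0.37, adjusted p = 9.1e-09). Gria1 was at 29.3, 38.3 and 87.1 CPM, below the 124 to 354 CPM of the other subregions (-1.82 ± 0.26, adjusted p = 4.0e-09). Cnih2 was at 58.5, 84.3 and 81.3 CPM, below the 127 to 274 CPM elsewhere (-1.44 ± 0.23, adjusted p = 2.2e-07). Gria2 was at 95.1, 123 and 81.3 CPM, below the 129 to 313 CPM elsewhere (-1.08 ± 0.22, adjusted p = 4.4e-05). All 4 calls held without each section in turn. That of Gria2 was lost when regions were made from one part of the counts and tested on the rest (adjusted p = 0.40).

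Cnih3 was too low to be resolved in these spots. It was at 7.32, 15.3 and 0 CPM in subregion 4 (1, 2 and 0 counts) but also low in subregions 2 and 3, and its fold change of -1.52 ± 0.78 (log2) did not pass (adjusted p = 0.21). Gria3 (0.39 ± 0.29, adjusted p = 0.44), Gria4 (0.27 ± 0.35, adjusted p = 0.72) and Cacng2 (-0.42 ± 0.24, adjusted p = 0.30) did not pass in subregion 4, nor had they in cluster 5. Cacng8 had too few counts in the subregions to be tested. Markers of cortical glutamatergic neurons, a list that holds Slc17a7, summed to 710 to 784 CPM in subregion 4 and to 256 to 373 CPM in the others, and their part in these results was not tested. As a share of the 4 subunits, Gria1 made up 12.1%, 11.9% and 29.4% of 126 counts in subregion 4 and between 27.7% and 48.1% in the others, so section 6 overlapped subregion 1.

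**Figure D3:**
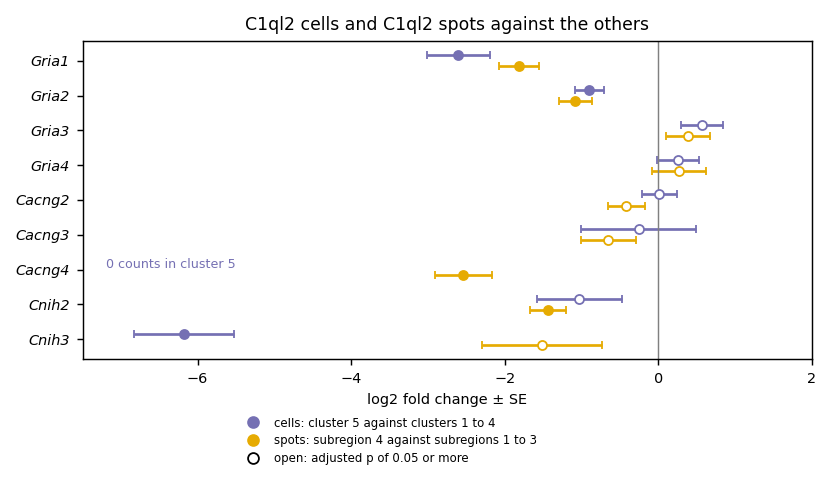
Log2 fold change with its standard error for 9 genes in the C1ql2 cells (cluster 5 against the mean of clusters 1 to 4) and in the C1ql2 spots (subregion 4 against the mean of subregions 1 to 3); open points did not pass an adjusted p of 0.05, and no fold change is drawn for Cacng4 in cells because cluster 5 had 0 counts. Gria1 and Gria2 lie below 0 and passed in both, Cnih3 passed in cells and Cnih2 in spots.

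Subregion 1, the Cbln1 and Tnnt1 spots, was set apart by Cnih3. It stood at 63.8, 71.3 and 68.7 CPM there and at 0 to 30.6 CPM in the other subregions, without overlap (log2 fold change 2.88 ± 0.32, adjusted p = 8.5e-14). In all, 5 of 9 genes passed in subregion 1, 4 of them higher, against 12.3% of all genes. Cacng4 was at 82.5, 166 and 164 CPM (1.17 ± 0.19, adjusted p = 1.8e-07), although this call came mostly from the low level in subregion 4, since subregion 1 did not pass against subregion 2 (adjusted p = 0.39) or 3 (0.29), pairs in which 9.51% and 9.01% of all genes did. Gria3 (90.1 ± 18.0 CPM, log2 fold change 0.57 ± 0.18, adjusted p = 0.021) and Cacng2 (146 ± 59.5 CPM, 0.49 ± 0.15, adjusted p = 0.017) passed by less, each in 1 of 3 fits that left out a section.

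Cacng3 fell in subregion 1 against the mean of the other 3, at 36.3, 21.1 and 25.8 CPM against 42.6 to 123 CPM in subregions 2 and 3 and 22.0, 30.6 and 58.1 CPM in subregion 4 (log2 fold change -1.18 ± 0.25, adjusted p = 0.00013). Subregions 1 and 4 overlapped, and Cacng3 did not pass between them (-0.40 ± 0.43, adjusted p = 0.64). Without section 6 the call in subregion 1 did not pass (-0.85, adjusted p = 0.15). Oligodendrocyte markers were also higher in subregion 1, at 9155 to 9523 CPM against 3571 to 6279 CPM in the others. In region 5 of the sections, where Mbp is a leading gene and the same markers summed to 48126 to 61979 CPM, 46.4% of all genes changed. Cacng3 was at 28.8, 18.4 and 14.3 CPM there, also lower than in the mean of the other regions (-0.99 ± 0.17, adjusted p = 2.9e-06), and Cnih3 was at 18.3, 8.49 and 9.19 CPM (-0.53 ± 0.24, adjusted p = 0.065). The part of these markers in the values of subregion 1 was not tested.

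Subregions 2 and 3 each held 4 higher calls of 9, against 5.63% and 4.03% of all genes (3.56% and 2.29% higher). Between subregions 2 and 3, 10 of 6372 genes (0.157%) passed, and none of these 9. Each of the 2 subregions is also part of the reference of the other, so their calls are not separate results. Gria1 was at 199, 267 and 183 CPM in subregion 2 (0.78 ± 0.17, adjusted p = 0.00053) and at 237, 354 and 199 CPM in subregion 3 (1.10 ± 0.18, adjusted p = 1.1e-06). Cnih2 (means of 233 and 204 CPM) and Gria2 (237 in both) were higher in each of the 2, Cacng4 passed in subregion 2 and Cacng3 in subregion 3. Cacng4 was at 28.4, 150 and 143 CPM in subregion 2, with 2 counts in section 2. These values overlapped those of subregions 1 and 3, and Cacng4 passed against neither. Only subregion 4 lay below them in every section. Against subregion 1 directly, Gria1, Gria2, Cacng3 and Cnih2 passed in both. Subregion 2 had 7, 76 and 87 spots in sections 2, 5 and 6, and subregion 3 had 89, 14 and 10. Section 2 thus carried little of subregion 2, and sections 5 and 6 carried little of subregion 3. Of the 1053481 counts of subregion 3, 914591 came from section 2, so the division between the 2 subregions mostly followed the section. In subregion 3, no call held without section 2 (adjusted p from 0.051 for Gria1 to 0.75 for Cnih2). In subregion 2, no call held without section 5 (from 0.075 for Cnih2 to 0.30 for Cacng4).

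**Figure D4:**
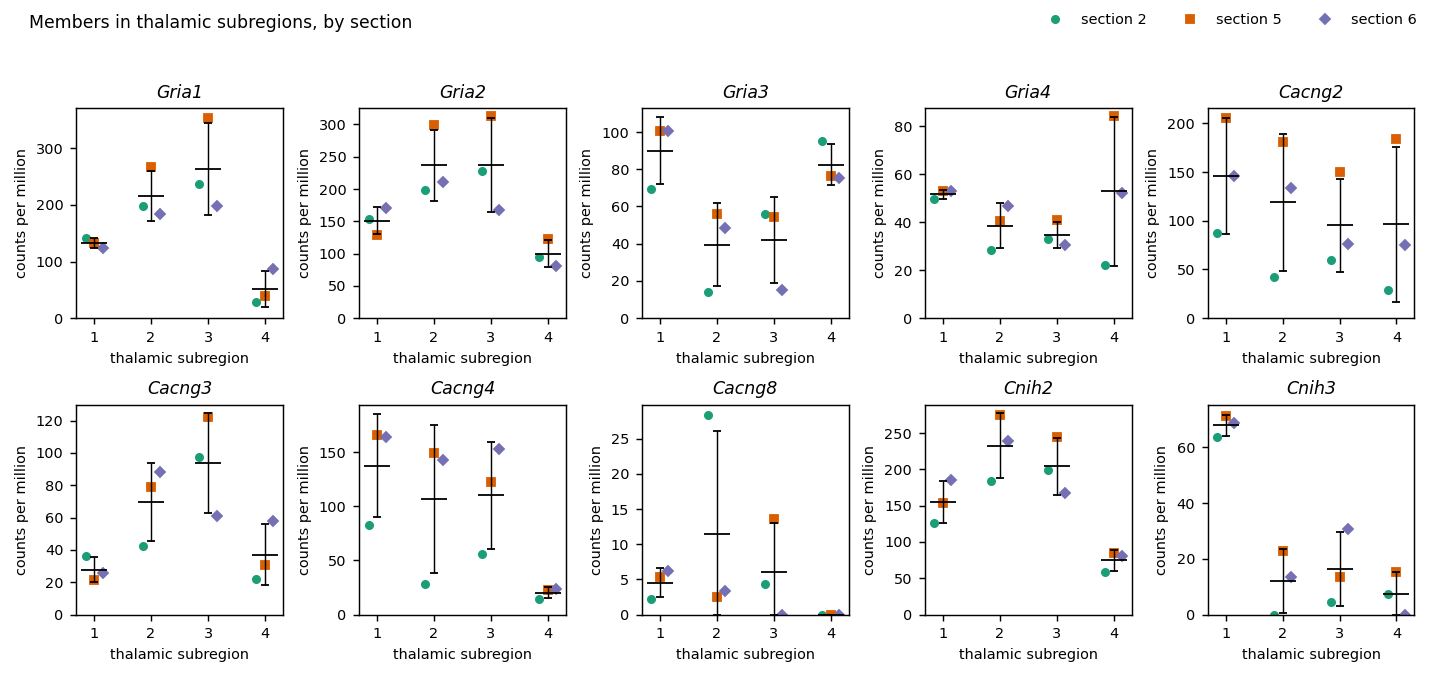
Levels in CPM of the 10 genes in thalamic subregions 1 to 4, with 1 point per section, a black line at the mean and bars of 1 SD over 3 sections (the lower bar stops at 0). Cnih3 is at 63.8 CPM or more in subregion 1 and at 30.6 CPM or less elsewhere, and Cacng4 is at 23.2 CPM or less in subregion 4.

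Across the whole sections, region 12 (73 spots, 69 of them in section 6) was left out, and 75 of 110 tests of the 10 genes in 11 regions passed, against 37.8% of all genes. In the thalamic region 7, 7 of 10 genes passed, 5 of them higher, against 30.2% of all genes. Cacng4 was at 64.0, 137 and 142 CPM in sections 2, 5 and 6 (log2 fold change 1.35 ± 0.11, adjusted p = 1.0e-15). Cacng2 was at 69.4, 188 and 131 CPM (0.77 ± 0.11, adjusted p = 1.7e-08), and Cnih3 was at 31.0, 39.9 and 39.9 CPM (0.86 ± 0.15, adjusted p = 7.8e-06). Section 2 was the low one for Cacng4 and Cacng2, and it was so over all spots as well (37.2 against 67.7 and 64.7 CPM for Cacng4, 63.5 against 117 and 94.7 CPM for Cacng2).

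The pore subunits Gria2 and Gria3 went the other way in the thalamic region. Gria2 was at 185, 211 and 176 CPM in sections 2, 5 and 6 (-0.67 ± 0.10, adjusted p = 6.4e-08), and Gria3 was at 63.0, 75.8 and 75.6 CPM (-0.58 ± 0.11, adjusted p = 1.4e-05), which fell short without section 2 (-0.30, adjusted p = 0.053). Regions 1, 3, 4 and 6 had Gria2 means of 481 to 560 CPM, all above region 7. Cnih2 (0.32 ± 0.09, adjusted p = 0.0038) and Cacng3 (0.35 ± 0.12, adjusted p = 0.019) were slightly higher, the latter in 1 of 3 fits without a section. Gria1 (0.02 ± 0.09), Gria4 (0.13 ± 0.11) and Cacng8 (-0.12 ± 0.37) did not pass.

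Region 11, led by Pvalb, Gad1 and Six3, had another set. Gria4 was at 73.7, 70.5 and 81.9 CPM there, above the highest value of the 10 other tested regions, which was 56.7 CPM (0.98 ± 0.16, adjusted p = 1.7e-06). Cacng2 was also higher, at 95.8, 192 and 139 CPM (1.01 ± 0.15, adjusted p = 5.6e-07). Gria1, Gria2, Cacng3, Cnih2 and Cnih3 were lower, with log2 fold changes from -0.68 to -2.12. Cnih3 was at 7.37, 6.41 and 3.34 CPM. In all, 7 of 10 passed in region 11, against 18.9% of all genes.

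Cacng4 and Cnih3 also separated other regions, among them regions 1, 3, 4 and 9, where 42.7%, 45.4%, 47.8% and 37.2% of all genes changed. Cacng4 had its highest mean in region 3 (Penk and Drd1), at 152 ± 52.4 CPM (1.90 ± 0.09, adjusted p = 4.6e-26), and its lowest in region 1 (Tbr1), at 19.4 ± 3.45 CPM (-1.40 ± 0.13, adjusted p = 2.0e-13). Cnih3 had its highest mean in region 4 (Lamp5 and Mef2c), at 87.0 ± 17.2 CPM (2.27 ± 0.10, adjusted p = 7.4e-27), where Cacng4 was at 20.3 ± 5.81 CPM. In region 3 Cnih3 was at 12.1 ± 2.09 CPM (-0.76 ± 0.18, adjusted p = 0.00047). Thus the 2 genes that were absent or nearly absent together from the C1ql2 cells lay apart in these regions. Cacng8 was at 2.23 to 7.38 CPM in the means of the 11 regions and passed in region 9 (Oxt and Avp), at 8.03, 4.48 and 9.63 CPM (0.88 ± 0.35, adjusted p = 0.039). These values rest on few counts, and this single call was not followed through the alternative fits. In region 10 (Ttr), 9 of 10 genes were lower, against 53.9% of all genes that changed there (25.5% lower).

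**Figure D5:**
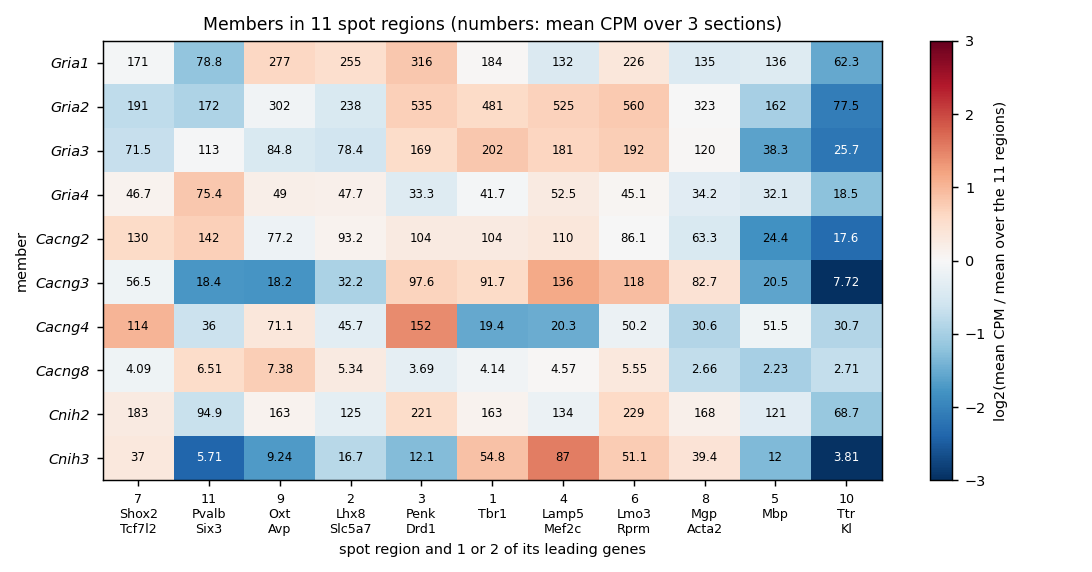
Mean CPM of the 10 genes (rows) over 3 sections in 11 spot regions (columns, with 1 or 2 leading genes each), coloured by the log2 ratio to the mean of the gene over the 11 regions. Cacng4 is highest in region 3 (152 CPM) and region 7 (114 CPM), Cnih3 in region 4 (87.0 CPM), and Gria4 in region 11 (75.4 CPM).

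The anterior section was set beside the 2 posterior ones without a test, since the anterior level has 1 section. None of the 10 genes differed by a factor of 2 from both posterior sections in the thalamic region or over all spots. Cacng2 in the thalamic region was 2.71 times the level of section 2 and 1.44 times that of section 6, and Cacng4 was 2.14 times and 0.970 times.

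Of the entries for the 44 other genes of AMPA receptor biology, 40 could be tested in neurons and 33 in the subregions. In neurons Dlg2 was counted under separate entries with the same symbol. In cluster 5, 5 were higher and 5 lower, where 12.1% of all genes changed, with a median log2 fold change of -0.31 against -0.18 over all genes tested. In subregion 4, 7 were higher and 5 lower, where 13.6% of all genes changed, with a median of -0.07 against -0.01. Camk2a, a subunit of the kinase that phosphorylates AMPA receptors, fell to 7.97 ± 6.92 CPM in cluster 5 (-3.92 ± 0.54, adjusted p = 0.00011) and to 67.3 ± 20.4 CPM in subregion 4 (-1.74 ± 0.23, adjusted p = 3.9e-10). Nptx2, a neuronal pentraxin that clusters AMPA receptors at synapses, was at 157 ± 42.3 CPM in cluster 5 (1.70 ± 0.31, adjusted p = 0.0013) and at 187 ± 26.1 CPM in subregion 4 (1.85 ± 0.23, adjusted p = 1.8e-11). Nsf, an ATPase that binds GluA2, was higher in both (0.88 ± 0.13, adjusted p = 0.00026, and 0.74 ± 0.10, adjusted p = 2.6e-10). Frrs1l, needed for assembly of the receptor, fell in cluster 5 to 89.9 ± 13.3 CPM from means of 189 to 290 CPM in the other clusters (-1.40 ± 0.25, adjusted p = 0.000997). It did not pass in subregion 4 (-0.34 ± 0.21, adjusted p = 0.32).

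Cluster 2, which had the most Cacng4, had 4 of these 40 entries higher and 6 lower, where 9.06% of all genes changed (4.92% higher). Camk2a was highest there with a mean of 226 CPM (2.02 ± 0.34, adjusted p = 0.00101). Gsg1l, an auxiliary protein that dampens AMPA receptor currents, was low in cluster 2 at 28.3 ± 17.4 CPM (-1.68 ± 0.34, adjusted p = 0.0048) and in cluster 3 at 35.7 ± 23.3 CPM (-1.44 ± 0.33, adjusted p = 0.031), and stood at 119 to 130 CPM in the means of the other 3. Gsg1l was also highest in the C1ql2 spots, at 114 ± 34.6 CPM (2.27 ± 0.32, adjusted p = 2.7e-09). Cluster 3 led in Nptxr, the pentraxin receptor, at 205 ± 34.0 CPM (1.68 ± 0.29, adjusted p = 0.0028), and in Olfm1 at 856 ± 66.6 CPM (1.35 ± 0.16, adjusted p = 0.00014). Nptxr was likewise higher in subregion 2 (694 ± 62.7 CPM) and subregion 3 (672 ± 287 CPM) than in subregion 1 (150 ± 32.0 CPM), with log2 fold changes against the rest of 1.26 ± 0.12, 1.16 ± 0.13 and -1.75 ± 0.12.

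In the thalamic region as a whole, 14 of 43 such genes were higher and 10 lower than in the rest of the sections, where 30.2% of all genes changed. Adarb1, which encodes an enzyme able to edit glutamate receptor RNA, had the smallest adjusted p (1.68 ± 0.07, adjusted p = 1.6e-28). Lrrtm1, a synaptic adhesion protein, was higher (1.59 ± 0.09, adjusted p = 4.6e-23), and Arc, which promotes removal of AMPA receptors from the surface, was lower (-2.17 ± 0.15, adjusted p = 5.6e-19).

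The likeness of patterns was described by Pearson's correlation of log2 CPM, centred within animals, over the 15 sums of 3 animals and 5 clusters. The sums share libraries and depth, and no test was made. Timp3 and Robo1 followed Cacng4 most closely (r of 0.976 and 0.972), and Endou, Cdh8 and Rgs16 followed Cnih3 (0.983, 0.981 and 0.975). For Gria1 the 3 genes were Adgra1, Eid1 and Pde4b (0.954, 0.947 and 0.945). Cacng4 and Cnih3 had an r of 0.941 with each other over the neuron sums and of -0.294 over the 33 sums of 3 sections and 11 regions. The neuron sums include cluster 5, where Cacng4 was at 0 and Cnih3 at 0, 0 and 1.56 CPM, and no r was taken without it. In clusters 1 to 4 alone, the log2 fold changes of Cacng4 were -0.82, 1.75, -0.18 and -0.75. Those of Cnih3 were 0.26, 0.81, -1.34 and 0.26.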

How the data were processed

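Counts of single cells and of Visium spots were taken as deposited. The labels' protocols give hand harvest and barcoded reverse transcription for the cells and 24 min permeabilization for the sections, and the submitters' processing notes name Seurat, Space Ranger, NCBIM37 and mm10. The aligner and the counting step are not given in the sources used here, nor whether molecules or reads of the cells were counted. The deposited well table gives the animal of each well, and the deposited spot list the section of each spot (other unit), per the file headers. The animal was the replicate, because no name ties the 14 labelled cell samples to the 14 plates.

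Wells with at least 1000 genes were kept. Left out were 9 wells with a source of another animal (8 with enough genes) and the spike-in and reporter sequences, which held 45.1% of all counts. Hand-picked cells were not run through a doublet caller. Counts scaled to 10000 and log-transformed (2000 variable genes, 30 components, 15 neighbours) were clustered by Leiden at resolution 0.5 in scanpy 1.11.5 (Python 3.11.15). Differences between sums (at least 5 cells or spots per replicate) came from edgeR 4.0.16 under R 4.3.3, its quasi-likelihood test with Benjamini-Hochberg adjustment, a block for the replicate, filterByExpr and TMM factors. Residual correlation of sums of 1 animal or section had medians of 0.0755 in neuron clusters, 0.0679 in regions and 0.0778 in subregions, against -0.0472, -0.0462 and -0.0474 for other pairs. Groups share animals or sections by design, so the block was kept. The fits were tested on simulated data. Simulated 2-fold changes were called for 44%, 57% and 45% of changed genes in neuron clusters, regions and subregions, and 4-fold changes for 100%. The changes were simulated only in the first cluster, region or subregion, for genes above a minimum of expected counts. The spread was fixed, with no differences between animals or sections, so the real fits can miss more. A gene that did not pass can therefore still differ by 2-fold or more. Larger fold changes also missed the threshold, as Cacng3 did between clusters 1 and 3.

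The 10 genes, the 44 others and the rule for naming were chosen with earlier results of these data known. All 10 were named, of the 44 up to 6 per comparison with the smallest adjusted p under 0.05, and 3 most alike genes. A few names are not reported here. Alternatives were DESeq2 1.42.0, RLE scaling, no filter, no block, other clusterings, thinning, a minimum of 2000 genes and leaving out replicates.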

Additional observations from a re-analysis of the deposited data

Results flagged for a closer look

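Region 12, led by Neurod6 and Tac2, was in no test because 69 of its 73 spots lay in section 6. Its pooled levels of 3 genes were above those of each of the 11 tested regions: Gria1 at 556.3 CPM, Cnih2 at 598.4 CPM and Cacng8 at 13.6 CPM. Cacng8 there rests on 10 counts in 10 spots, and Cnih2 on 440 counts in 68 of 73 spots.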

How the results depend on the processing

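The count of calls among the 10 genes was 14 in neuron clusters, 75 in regions and 17 in subregions. Without the replicate block it was 12, 62 and 13. It fell to 9 in clusters when cells were thinned to 5000 counts and to 3 when clusters 1 to 4 were fitted alone, a setting chosen after seeing the data, like leaving out cells with other markers (13) and joining clusters 1 and 4 (12). In subregions it fell to 10 under DESeq2 and to 9 of 21 tests with groups made on one part of the counts and tested on the other. Leaving out 1 replicate gave 5 to 20 calls in clusters, 65 to 72 in regions and 11 to 12 in subregions: 20, 6 and 5 without animals 1, 2 and 3. Apart from clusters 1 to 4 alone, the share of all genes called under each alternative was not taken. These rises and falls therefore cannot be read as particular to the 10 genes. Cacng4 reversed in clusters 1, 3 and 4 fitted without cluster 5 (-0.82, -0.18 and -0.75), which removes the zero from the comparison. The calls of Cacng4, Cnih3 and Gria1 in cluster 5, and of Cacng4, Gria1 and Cnih2 in subregion 4, held in every alternative that could be run for them. The share of Gria2 moved from 55.7% to 55.2% as a mean of per-cell shares, and the anterior-posterior count stayed at 0 over all spots. Splitting counts gave no match for cluster 4, for subregion 2 or for regions 4, 9 and 11, and clustering on all genes gave none for cluster 4. The cause of these changes was not tested. Depth limits Cacng8, and Cacng4 and Cnih3 in subregion 4, with 9 and 3 counts.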

Other observations

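The 27 cells with oligodendrocyte markers, which entered no test because only 2 came from animal 1, carried Gria2 at 191, 113 and 230 CPM, Gria4 at 47.8, 87.1 and 129 CPM and Gria1 at 0, 17.4 and 18.8 CPM in the 3 animals. Cacng4 was at 143, 43.5 and 41.7 CPM in them, from 27, 5 and 40 counts in 8 of 27 cells. Slc17a6, a marker of glutamatergic thalamic neurons, gave counts in 12 of the 27 cells (393 CPM pooled). For each gene, the 5 cells with the most held 90.3% of the Cacng4, 68.9% of the Gria2 and 83.9% of the Gria4 counts. Whether these counts came from oligodendrocytes or from neuronal RNA in the same wells was not tested.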
